A study of Mus musculus with 13 samples.

Results

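Schwann cells wrap the motor and sensory axons that run through skeletal muscle, and 8 genes of these cells and of their myelin were followed across 13 muscle RNA-seq libraries. The genes were chosen by name: Sox10, Ngfr, Cdh19 and S100b, which mark the Schwann cell lineage, and Pmp22, Mbp, Prx and Mag, which encode proteins of the myelin sheath. All 8 were found among the 49315 genes of the deposited count table, and 8 of 8 passed the low-count filter, which kept 16496 genes. The libraries were made from polyA-selected RNA of mouse skeletal muscle. KO animals lacked the microRNA locus miR-181a2b2 in the whole body (miR-181a2b2-/-), and flox animals, called WT in the sample titles, carried the same locus with flanking loxP sites on both copies (miR-181a2b2flox/flox). Feeding was either chow or HFSC, a diet abbreviation left unexplained in the labels. There were 4 groups: HFSC KO (n = 3), HFSC flox (n = 4), chow KO (n = 3) and chow flox (n = 3). Age and sex are not given in the labels used here. Hindlimb ischemia is named for the series, but the limb each piece of muscle was taken from is not. Since the labels do not state that every library is a different mouse, the p-values reflect library-to-library spread, part of which may be technical.

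In peripheral nerve the transcription factor Sox10 is present throughout the Schwann cell lineage and, together with Egr2, switches on the genes of myelin. A myelinating Schwann cell wraps a single large axon in compact membrane that contains Pmp22 and Mbp, while Mag lies in the uncompacted membrane next to the axon and Prx anchors the outer surface of the sheath. Non-myelinating Schwann cells ensheath small axons, keep higher Ngfr, and after nerve injury myelinating cells lose myelin transcripts and regain Ngfr. Several of the 8 genes are also made outside nerve. Pmp22 is made in fibroblasts, S100b in fat cells, Prx in some endothelial cells and Ngfr in stromal cells. The Mbp locus gives other transcripts in immune cells. In whole muscle, fewer cells of a type and less RNA per cell cannot be told apart.

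The deleted locus encodes 2 microRNAs whose 5p arms share the seed at bases 2 to 8, through which a microRNA pairs with the 3′ untranslated region (UTR) of its targets. They are shown here, from RefSeq on build GRCm38.p6, because KO animals lack this locus. The mouse genome encodes the same mature 5p arms at another locus as well. Mir181a-2 gives its 5p arm at chr2:38852741-38852763 and Mir181b-2 at chr2:38853845-38853868, both on the plus strand, with the seed in capitals.
mmu-miR-181a-5p: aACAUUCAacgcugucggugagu
mmu-miR-181b-5p: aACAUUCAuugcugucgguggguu

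A search of GENCODE M21 3′ UTRs for sequence complementary to that seed, on the transcribed strand, used the 7-letter site TGAATGT, the site GAATGTA, and the 8-letter TGAATGTA that contains both. Of the 8 genes, 1 held a site, Sox10, where TGAATGT lay in 2 of 2 transcripts with a UTR. Among tested genes with a 3′ UTR, 3456 of 13938, or 24.8%, held a site of any of these kinds. The Sox10 site, in capitals with the bases around it, is at chr15:79155401-79155407 (GRCm38) on the minus strand.
Sox10 site: cctcttcaccTGAATGTgggaactggt

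PolyA-selected libraries hold few reads of microRNA genes, and they gave a weak check of the genotypes. Mir181a-2 had 0 reads in each of the 3 HFSC KO and 3 chow KO libraries. In HFSC flox it had 1 read in replicate 1 and 0 in the other 3 libraries, and in chow flox 2 reads in replicate 2, 1 in replicate 3 and 0 in replicate 4. Mir181b-2 had 0 reads in all 13 libraries.

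The libraries held between 20830943 and 45710227 counted reads (median 29011060). Levels are given as counts scaled to a common total (CPM) after TMM scaling, a trimmed mean that sets library sizes on a common basis. A count of 0 in a library allows up to 3 counts, between 0.0633 and 0.152 CPM, and such limits cover counting error only. Fibroblast markers, summed over 10 genes, ran from 2590 to 3130 CPM in HFSC KO, 2970 to 4320 in HFSC flox, 411 to 631 in chow KO and 1260 to 6570 in chow flox. The summed 9 macrophage markers ran from 220 to 277 CPM in HFSC KO, 223 to 355 in HFSC flox, 39.1 to 77.9 in chow KO and 106 to 1050 in chow flox, where replicate 4 was the lowest for both lists. The 6 oligodendrocyte markers, genes of central myelin that Schwann cells lack, were all below the filter and summed to at most 0.844 CPM. The 8 muscle fibre genes checked against the tissue label summed to between 73400 and 173000 CPM. Of these, 3 chosen after their values were seen differed between the diets. Myh7 ran from 106 to 548 CPM in HFSC and from 2410 to 3420 CPM in chow libraries, and Tnnt1 from 53.9 to 213 and from 617 to 754 CPM. Myh1 was higher on HFSC, at 6710 to 14800 CPM against 4310 to 6050 CPM on chow. Whether the muscle pieces differed between the diets was not tested.

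Sox10 (chr15:79154908-79165240, minus strand) is the lineage's defining transcription factor. It measured 1.86, 3.11 and 1.5 CPM in HFSC KO, 1.55, 1.47, 2.69 and 1.84 in HFSC flox, 3.92, 1.40 and 1.81 in chow KO and 2.85, 1.76 and 1.75 in chow flox. The 4 groups overlapped, and the highest and the lowest library both belonged to chow KO. Behind these values stood 29 to 115 reads per library.

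Ngfr (chr11:95568818-95587735, minus strand) encodes the low-affinity neurotrophin receptor p75. It measured 1.61, 3.77 and 1.54 CPM in HFSC KO, 1.62, 1.32, 4.64 and 3.93 in HFSC flox, 2.22, 0.999 and 0.474 in chow KO and 2.57, 1.52 and 1.03 in chow flox. It was the most variable of the 8, with a 9.79-fold span between the highest and the lowest library, and 3 HFSC libraries stood above all chow libraries while the other 4 HFSC libraries lay among them. The read counts were 11 to 186 per library.

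Cdh19 (chr1:110888326-110977584, minus strand) encodes a cadherin of Schwann cells and their precursors. It measured 3.4, 2.92 and 3.25 CPM in HFSC KO, 1.35, 1.62, 2.53 and 3.61 in HFSC flox, 3.79, 2.08 and 2.54 in chow KO and 1.71, 1.95 and 2.67 in chow flox. The HFSC KO libraries lay close together, at 3.19 ± 0.248 CPM (SD, n = 3), while HFSC flox spread over 2.28 ± 1.02 CPM (SD, n = 4) and reached above them.

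S100b (chr10:76253853-76261159, plus strand) encodes a calcium-binding protein used as a glial marker. It measured 1.75, 1.02 and 2.21 CPM in HFSC KO, 1.05, 1.47, 1.04 and 1.44 in HFSC flox, 2.25, 1.16 and 1.16 in chow KO and 1.24, 0.748 and 1.56 in chow flox. The groups overlapped, and the lowest library was chow flox replicate 3.

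Pmp22 (chr11:63128982-63159547, plus strand) encodes a membrane protein of compact myelin whose duplication causes a human inherited neuropathy. It measured 54.6, 39.3 and 59.0 CPM in HFSC KO, 42.9, 54.0, 38.2 and 48.1 in HFSC flox, 70.5, 30.9 and 39.3 in chow KO and 48.4, 43.8 and 47.8 in chow flox. Group means were nearly level, at 51.0 ± 10.3 in HFSC KO, 45.8 ± 6.79 in HFSC flox, 46.9 ± 20.8 in chow KO and 46.7 ± 2.49 CPM in chow flox (SD). Pmp22 had the narrowest span of the 8 genes, 2.28-fold.

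Mbp (chr18:82475146-82585637, plus strand) encodes myelin basic protein, which holds the cytoplasmic faces of the sheath together. It measured 25.8, 18.9 and 28.7 CPM in HFSC KO, 17.5, 27.4, 14.8 and 21.1 in HFSC flox, 59.3, 23.9 and 34.0 in chow KO and 24.2, 17.4 and 36.0 in chow flox. Chow KO held the highest library and the highest mean, 39.1 ± 18.2 CPM (SD, n = 3), but its lowest library lay under the middle of chow flox. Counts are per gene, so classic myelin transcripts and the other products of the locus are summed.

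Prx (chr7:27499324-27520214, plus strand) encodes periaxin, which links the outer Schwann cell membrane to the basal lamina. It measured 11.8, 7.87 and 13.8 CPM in HFSC KO, 7.66, 12.3, 7.11 and 9.42 in HFSC flox, 28.9, 9.83 and 12.3 in chow KO and 11.9, 7.64 and 14.6 in chow flox. As for Mbp, chow KO replicate 1 was alone at the top and the other chow KO libraries lay within the range of chow flox. Prx shares 300 exonic bases with the antisense gene Gm15541, and since the strand setting of the counting is not given, their reads there cannot be told apart.

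Mag (chr7:30899176-30914873, minus strand) encodes myelin-associated glycoprotein, the adhesion protein of the membrane that faces the axon. It measured 1.07, 0.885 and 0.965 CPM in HFSC KO, 0.777, 0.861, 0.934 and 1.29 in HFSC flox, 1.74, 0.519 and 0.689 in chow KO and 1.01, 1.01 and 0.877 in chow flox. Its means were 0.974 ± 0.0949 in HFSC KO, 0.965 ± 0.225 in HFSC flox, 0.983 ± 0.661 in chow KO and 0.969 ± 0.0797 CPM in chow flox (SD). The means were almost the same, and chow KO held both the highest and the lowest library, with 13 to 61 reads per library over the series.

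**Figure D1:**
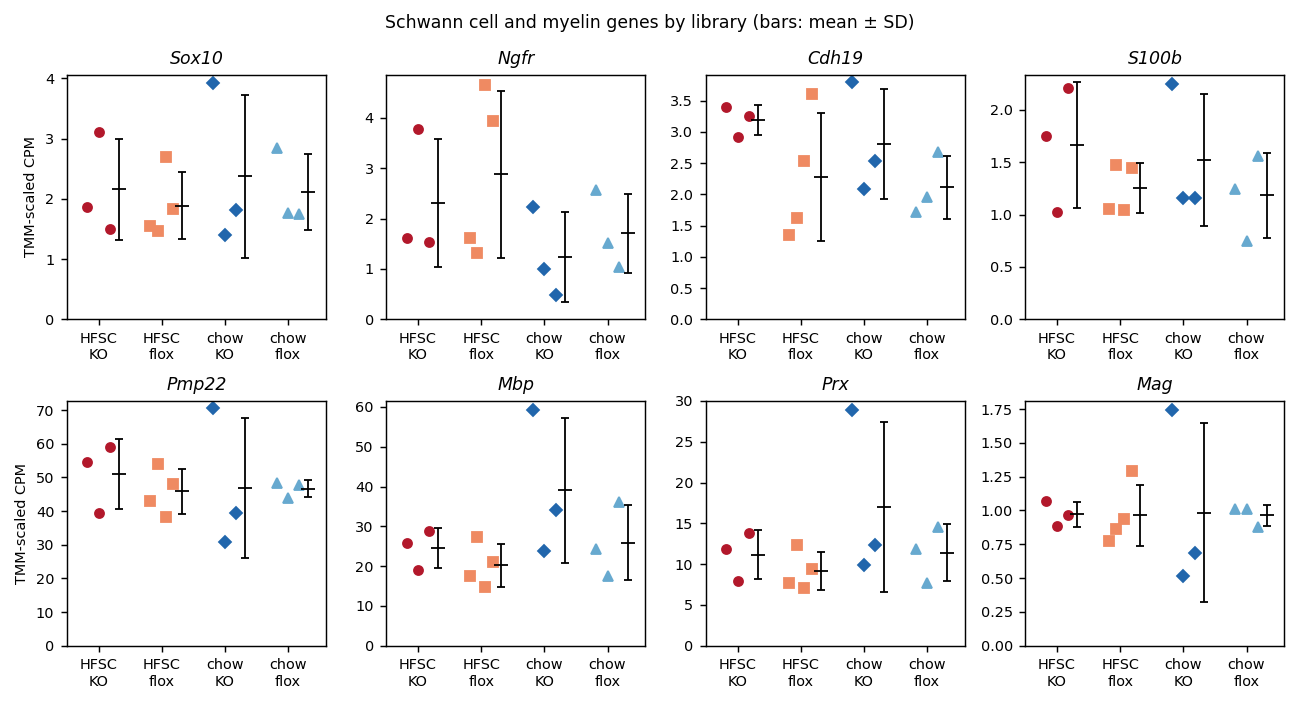
TMM-scaled CPM of the 8 genes in each library, with 1 panel per gene, 1 symbol per library and bars for the group mean ± SD, ordered HFSC KO, HFSC flox, chow KO and chow flox. The groups overlap in every panel, and the top library belongs to chow KO in 7 of the 8 panels, the exception being Ngfr.

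A promoter window of Mag and that of Prx are shown as those of sheath genes, 1 with and 1 without a motif of the factors that switch on myelin genes. The sequences are RefSeq's on GRCm38.p6, 300 bases around the gene's start, most of them before it, written on the gene's strand. Both strands were searched for the SOX-family core motifs ACAAAG and AACAAT and for the EGR motifs GCGGGGGCG and GCGTGGGCG, which do not overlap one another. Of 3 Mag windows in the table, 2 that overlap held ACAAAG and the other, at chr7:30914272-30914571, held none of the 4 motifs. The Mag window shown, at chr7:30914814-30915113 (minus strand), held ACAAAG once, on its reverse strand and printed as CTTTGT in capitals, and the Prx window at chr7:27499074-27499373 (plus strand) held none of the 4.
Mag promoter: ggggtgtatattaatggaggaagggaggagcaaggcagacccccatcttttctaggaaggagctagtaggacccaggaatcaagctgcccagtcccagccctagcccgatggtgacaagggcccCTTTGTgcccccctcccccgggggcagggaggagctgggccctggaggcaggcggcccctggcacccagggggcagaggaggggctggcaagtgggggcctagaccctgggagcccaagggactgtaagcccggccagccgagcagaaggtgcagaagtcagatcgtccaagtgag
Prx promoter: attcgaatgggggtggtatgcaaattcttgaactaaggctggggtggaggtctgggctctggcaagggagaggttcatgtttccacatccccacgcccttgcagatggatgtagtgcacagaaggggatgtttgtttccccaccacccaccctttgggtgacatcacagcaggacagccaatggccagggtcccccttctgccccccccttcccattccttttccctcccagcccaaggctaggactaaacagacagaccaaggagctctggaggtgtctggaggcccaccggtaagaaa

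Of the 32851 RefSeq promoters of this length, 18.7% held ACAAAG, 10.7% AACAAT, 2.9% GCGGGGGCG and 0.6% GCGTGGGCG. Among the windows of S100b, Pmp22 and Ngfr none of the 4 motifs was present. A match in letters is a description of the window and says nothing about binding.

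Levels of different genes were compared per kilobase of exon. By the median over the 13 libraries, Pmp22 came first at 20.3 CPM per kilobase, followed by Mbp at 2.86, Prx at 2.12, S100b at 0.834, Cdh19 at 0.594, Sox10 at 0.593, Ngfr at 0.467 and Mag at 0.229. Pmp22 was above every other gene in every library, with 13.1 to 29.9 CPM per kilobase, against a highest value of 7 for Mbp. Within libraries the upper part of the order held throughout: Mbp was above Prx, Prx above S100b and S100b above Cdh19 in 13 of 13 libraries each. Cdh19 was above Sox10 in 6 of 13, so these neighbours could not be ordered, while Sox10 was above Ngfr in 10 and Ngfr above Mag in 12 of the 13. Mag, the lowest, ranged from 0.128 to 0.427 CPM per kilobase and stayed under every value of Sox10 and S100b.

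On chow, loss of the locus did not move any of the 8 genes past the test. By edgeR's quasi-likelihood F test with Benjamini-Hochberg adjustment over all tested genes and a threshold of 0.05, 0 of the 8 were called in KO against flox, where 11.5% of all tested genes were called, 1.38% higher and 10.1% lower. None had an unadjusted p under 0.05 either, where 33.8% of all tested genes did, and DESeq2 also called 0. Log2 fold changes were 0.60 ± 0.34 for Mbp (adjusted p = 0.22), 0.58 ± 0.38 for Prx (adjusted p = 0.283) and 0.42 ± 0.35 for Cdh19 (adjusted p = 0.4), each with its SE. S100b had 0.38 ± 0.37, Sox10 0.17 ± 0.40, Mag 0.03 ± 0.38 and Pmp22 0.01 ± 0.25. The direction of Pmp22, Sox10 and Mag turned negative with plain library totals, with limma voom and with replicate numbers as a block. Ngfr was the exception in sign, at -0.47 ± 0.61. Limma voom with sample weights, which called 9899 genes in this comparison, gave Ngfr -1.36 ± 0.49 with an adjusted p of 0.027, while over 20 alternatives its log2 fold change ran from -1.36 to -0.06 and its adjusted p from 0.027 to 0.965. The median over the 8 genes was 0.28, against -0.01 over all tested genes. For no member did the chow KO and chow flox libraries separate, where 24.8% of tested genes had groups that did not overlap. The 95% intervals, from -1.79 to 1.39 over the 8 genes, leave room for changes of more than 2-fold in Ngfr, Mbp, Prx, Cdh19, S100b and Sox10, while that of Pmp22 ran from -0.53 to 0.55.

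Chow KO replicate 1 carried much of that comparison. It held the highest level of 7 of the 8 genes among all 13 libraries, and the 8 genes summed to 173 CPM in it, against 70.8 and 92.2 in the other chow KO libraries and 75.9 to 106 in chow flox. The summed level of 26 further myelin genes was also highest there, at 395 CPM. The summed axon list was 9.07 CPM in it, between the 9.71 and 8.32 CPM of the other chow KO libraries. Of the 11 axon genes 6 were below the filter, so this sum is a weak gauge of axons. The axon gene Uchl1 held 5.3 of the 9.03 CPM that this list averaged in chow KO. The fibroblast sum of replicate 1, 628 CPM, lay close to the 631 CPM of replicate 2. Summed over 16 further Schwann cell identity genes, chow KO replicate 1 had 86.5 CPM. The other chow KO libraries had 65.2 and 63.3 CPM, and chow flox 71.8 to 125 CPM. Much of this sum was Zeb2 and Nab1, at 34.7 and 14.6 CPM in chow KO replicate 1. In chow flox replicate 3, which had the 125 CPM, they were 58.3 and 22.1 CPM. That library was also the highest in the fibroblast and macrophage sums, at 6570 and 1050 CPM. Which cells these reads came from was not tested. Without chow KO replicate 1, the log2 fold changes in chow KO against chow flox were -1.21 for Ngfr, -0.68 for Mag, -0.41 for Pmp22 and -0.40 for Sox10. They were -0.04 for Prx, -0.01 for S100b, 0.14 for Cdh19 and 0.17 for Mbp. Again 0 of 8 were called, with adjusted p from 0.161 to 0.984. Without chow flox replicate 4, the library low in fibroblast and macrophage markers, Mbp had 0.91 ± 0.37 with an adjusted p of 0.0686, and no member was called. Whether the amount of nerve in the piece sampled had a part in these values was not tested.

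On the HFSC diet KO and flox muscle did not differ in any of the 8 genes past the test. Of the 8 genes, 0 were called in KO against flox by edgeR, with none at an unadjusted p under 0.05 and none by DESeq2 or limma voom, against 0.0182% of all tested genes called and 10.4% at an unadjusted p under 0.05. Cdh19 had the largest log2 fold change of the 8, 0.47 ± 0.32 (SE, adjusted p = 0.659), followed by S100b at 0.41 ± 0.35, Prx at 0.30 ± 0.35 and Mbp at 0.28 ± 0.31. Sox10 had 0.19 ± 0.38, Pmp22 0.16 ± 0.23, Mag 0.00 ± 0.35 and Ngfr -0.34 ± 0.55. The median was 0.23, against 0 over all tested genes, and no member had groups that did not overlap, against 12.7% of tested genes. The interval of Pmp22 ran from -0.35 to 0.66 and that of Ngfr, the widest, from -1.53 to 0.86.

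In flox animals, HFSC muscle and chow muscle did not differ in any of the 8 genes past the test. The count was 0 of 8 by edgeR, DESeq2 and limma voom, with none at an unadjusted p under 0.05 by edgeR, against 0.418% of all tested genes called and 12.8% at that unadjusted p. Ngfr had a log2 fold change of 0.76 ± 0.56 (SE, adjusted p = 0.611), and it averaged 2.88 ± 1.66 CPM in HFSC flox (SD, n = 4) and 1.71 ± 0.789 CPM in chow flox (SD, n = 3). Mbp had -0.36 ± 0.31 and Prx -0.33 ± 0.35, while Sox10 had -0.16 ± 0.38, Cdh19 0.14 ± 0.32, S100b 0.09 ± 0.35, Pmp22 -0.03 ± 0.23 and Mag 0.01 ± 0.35. Without chow flox replicate 4 the values of Mbp and Prx were -0.05 and -0.11. In 9.86% of tested genes the HFSC flox and chow flox libraries did not overlap, and for none of the 8 was that so.

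In KO animals many genes were called between the diets, and none of the 8 nerve genes was called, which does not show that they were unchanged. While 25.5% of all tested genes were called in HFSC KO against chow KO, 14.9% higher and 10.6% lower, 0 of the 8 were called by edgeR, DESeq2 or limma voom, and none had an unadjusted p under 0.05 by edgeR, against 40.7% of all tested genes. In 50.6% of tested genes the libraries of HFSC KO and chow KO did not overlap, and for 0 of the 8. Mbp was nearest to the threshold, with a log2 fold change of -0.68 ± 0.34 (SE, 95% interval -1.40 to 0.05, adjusted p = 0.147), and Prx followed at -0.61 ± 0.38 (adjusted p = 0.238). Ngfr had 0.89 ± 0.61 with an interval from -0.44 to 2.22, and Cdh19 0.18 ± 0.34, Pmp22 0.12 ± 0.25, S100b 0.11 ± 0.37, Mag -0.03 ± 0.39 and Sox10 -0.14 ± 0.41. These values rested on chow KO replicate 1: without it Mbp had -0.25 ± 0.32, Prx 0.01 ± 0.31, Pmp22 0.54 ± 0.19 (adjusted p = 0.0701), Mag 0.69 ± 0.32, Sox10 0.43 ± 0.39 and Ngfr 1.64 ± 0.68 (adjusted p = 0.107), again with 0 of 8 called. This comparison and that of KO against flox on chow share the chow KO libraries.

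The diet effect in KO was also set against that in flox, as an interaction of genotype and diet. The 8 genes had log2 interaction terms from -0.32 ± 0.46 for Mbp to 0.15 ± 0.34 for Pmp22 (SE), and 0 of 8 were called by edgeR, DESeq2 or limma voom, with none at an unadjusted p under 0.05 by edgeR. No tested gene was called in that test (0%), while 4806 (29.1%) had an unadjusted p under 0.05, and DESeq2 and limma voom called 2025 and 7098 genes. The widest interval was that of Ngfr, from -1.64 to 1.90.

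**Figure D2:**
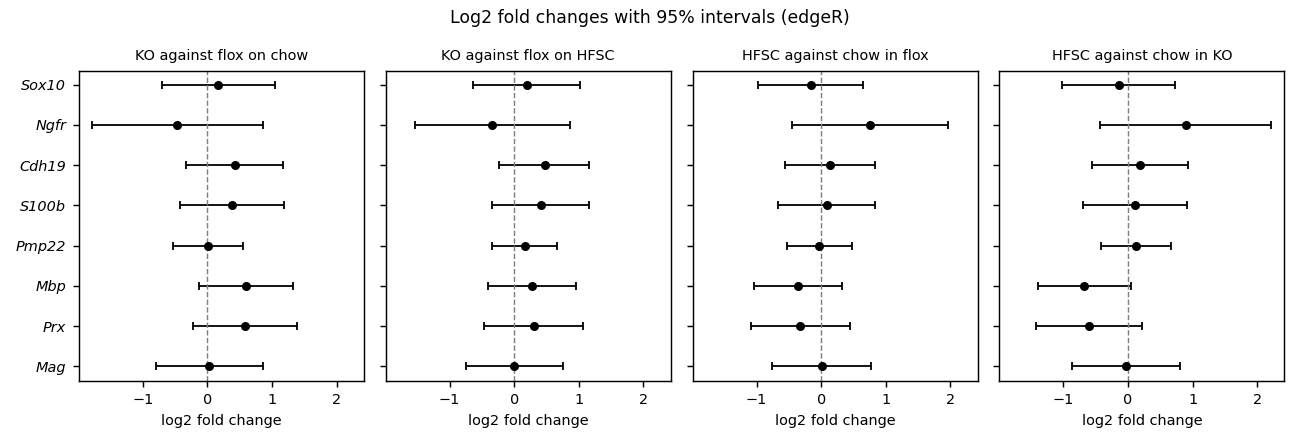
Log2 fold changes of the 8 genes (points) with 95% intervals (lines) from edgeR in the 4 comparisons of genotype and diet, with a dashed line at 0. Each interval includes 0, and the intervals of Ngfr are the widest in each panel.

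Among themselves the 8 genes fell into closer and looser pairs. Likeness was measured as the mean absolute difference, over the 13 libraries, of log2 CPM after each gene was centred on its own mean, and it is given as a description of these libraries. Of the 28 pairs, Mbp and Prx were closest, at 0.10. The ratio of Mbp to Prx CPM stayed between 2.03 and 2.76 while each gene ranged over 4.01-fold and 4.06-fold. Pmp22 with Mag and Pmp22 with S100b followed at 0.20, and the ratio of Pmp22 to Mag stayed between 37.3 and 62.7. Ngfr with Mbp was the farthest pair at 0.96, and the ratio of Ngfr to Sox10 spanned 8.16-fold, from 0.262 in chow KO replicate 3 to 2.14 in HFSC flox replicate 4. Mbp moved less closely with Sox10: their ratio ran from 5.50 in HFSC flox replicate 3 to 20.5 in chow flox replicate 4.

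**Figure D3:**
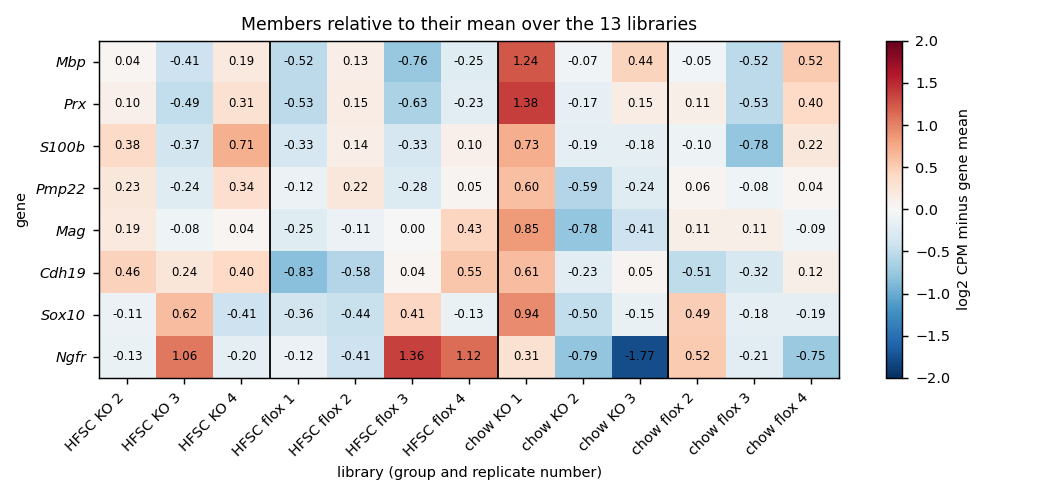
Log2 CPM of each gene (rows) minus that gene's mean over the 13 libraries, by library (columns), with red above and blue below the mean. Mbp and Prx follow each other from library to library, chow KO replicate 1 is above the mean for all 8 genes, and Ngfr has its own pattern, from -1.77 in chow KO replicate 3 to 1.36 in HFSC flox replicate 3.

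**Figure D4:**
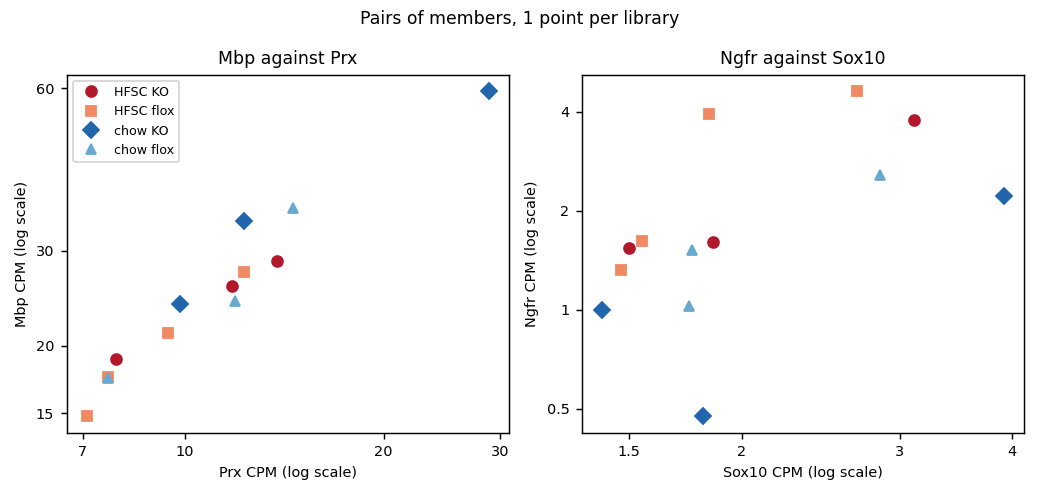
CPM of Mbp against Prx (left) and of Ngfr against Sox10 (right), both axes on a log scale, with 1 point per library in the colours of the 4 groups. The Mbp and Prx points lie along a line, with chow KO replicate 1 at its upper end, while libraries of like Sox10 differ several-fold in Ngfr.

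Across the transcriptome, the genes whose profile over the 13 libraries was most like that of Sox10 were Has3, Trim7, Gstt1, Fzd10 and Iffo1, with mean absolute differences of 0.20 to 0.23, where the median of all tested genes was 0.46. Among the nearest to the mean profile of the 8 genes were Plekha8 at 0.16 and Thyn1, Dbr1 and Secisbp2l at 0.17, against a median of 0.36. For Mbp, a target chosen after its values were seen, the nearest were Sptbn5 and Bcas1 at 0.18, Cadm4 at 0.19, Cfap298 at 0.21 and Asb11 at 0.22, against a median of 0.48. Bcas1 and Cadm4 are themselves genes of myelinating glia and were on the list of further myelin genes. Prx, at 0.10, lay nearer to Mbp than any of these.

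A list of 57 further Schwann cell and myelin genes gives the surroundings of the 8, and 50 of them passed the filter. Some stood above Mbp, whose group means were 20.2 to 39.1 CPM, such as Jun at 111 to 140 CPM and Plekhb1 at 41.9 to 87.3 CPM. Which cells of the muscle the reads of the list came from was not tested, so a call in it need not be a change in nerve. On chow, 2 of the 50 (4%) were called in KO against flox, against 11.5% of all tested genes. Plekhb1, a membrane-associated protein of glia and other cells, was higher, at 85.1, 80.5 and 96.2 CPM in chow KO against 36.8, 28.4 and 72.1 CPM in chow flox, with a log2 fold change of 0.93 ± 0.27 (SE, adjusted p = 0.0424). Its adjusted p was 0.0531 or more without any 1 library other than chow flox replicate 4, and ran from 1.82e-05 to 0.194 over 20 alternatives. Scn7a, a sodium channel of non-myelinating Schwann cells, was lower, at 11.8, 8.79 and 10.9 CPM in chow KO against 17.4, 19.4 and 13.2 CPM in chow flox, with -0.67 ± 0.15 (adjusted p = 0.0217). It lost its call without chow KO replicate 2 or 3 (adjusted p = 0.0923 and 0.109) and without chow flox replicate 2 or 3 (adjusted p = 0.067 and 0.108). In this same comparison 10 of 10 fibroblast, 9 of 9 macrophage, 2 of 8 endothelial and 0 of 8 adipocyte markers were called lower in chow KO. Their part in the value of Scn7a was not tested. The count of 2 among the 50 became 14 when chow flox replicate 4 was left out, a fit that called 42.8% of all genes. It became 1 without chow KO replicate 1, where 5.48% of all genes were called, and 1 without any 1 HFSC library, where 7.79% to 9.27% were. It was 0 without chow flox replicate 2 (2.68% of all genes), and 0 without chow flox replicate 3 or chow KO replicate 2 or 3, fits that called no gene at all. It was also 0 with replicate numbers as a block, which called no gene in this comparison. On HFSC, 0 of the 50 were called in KO against flox by edgeR, with 3 at an unadjusted p under 0.05. In flox, 0 of the 50 were called between HFSC and chow by edgeR, with 4 at an unadjusted p under 0.05, 1 called by DESeq2 (2.38% of all tested genes) and 5 by limma voom (25.3%).

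In KO animals 15 of the 50 (30%) were called in HFSC against chow, near the 25.5% of all tested genes, 11 of them higher and 4 lower. Higher in HFSC KO were Scn7a, at 19.9, 17.7 and 21.8 CPM against 11.8, 8.79 and 10.9 CPM in chow KO (log2 fold change 0.91 ± 0.15 SE, adjusted p = 0.00313), and Col28a1, a collagen of peripheral glia, at 10.1, 6.78 and 12.3 CPM against 1.71, 1.56 and 1.16 CPM in chow KO (2.71 ± 0.50, adjusted p = 0.00471). These were called under each of 20 alternatives. Among myelin and Schwann cell genes, the neuregulin receptor subunit Erbb2 (1.06 ± 0.33), the Egr2 cofactor Nab1 (0.58 ± 0.14), and the neuropathy genes Sh3tc2 (0.96 ± 0.26) and Mtmr2 (0.45 ± 0.10) were higher. So were Aspa (0.73 ± 0.20), an enzyme that breaks down N-acetylaspartate, and Arhgef10 (0.41 ± 0.12), a guanine exchange factor linked to nerve conduction. Lower in HFSC KO were Plekhb1 (-1.06 ± 0.27), Nfasc (-1.57 ± 0.42), which encodes neurofascin of the node of Ranvier, Fgd4 (-1.54 ± 0.42), and Drp2 (-1.01 ± 0.28), the dystroglycan-complex partner of periaxin. Drp2 measured 7.34, 5.57 and 8.07 CPM in HFSC KO and 20.8, 9.75 and 11.7 CPM in chow KO. Without chow KO replicate 1 its log2 fold change was -0.62 with an adjusted p of 0.0858, and without HFSC KO replicate 3 its adjusted p was 0.072. The lower Drp2 on HFSC was not particular to KO. In flox, where edgeR did not call it, Drp2 ran from 4.53 to 7.19 CPM on HFSC and from 9.32 to 13.1 CPM on chow. Nab1, Sh3tc2, Mtmr2, Aspa, Arhgef10, Plekhb1, Nfasc and Fgd4 each lost the call when HFSC KO replicate 4 was left out, with adjusted p from 0.0526 to 0.0873. All of these except Mtmr2 also lost it without at least 1 other KO library, at up to 0.0952, and all kept their direction. Erbb2 lost its call without HFSC KO replicate 3 (0.63, adjusted p = 0.148) or when a chow KO library was left out (adjusted p between 0.0587 and 0.123). Of chow KO, leaving out replicate 2 or replicate 3 lowered the count of 15 to 6 and to 5, in fits that called 12.5% and 8.58% of all genes. Of HFSC KO, leaving out replicate 2, 3 or 4 lowered it to 9, 8 and 5, where 17.5%, 16.8% and 10.6% of all genes were called. For that contrast, 10 of 10 fibroblast, 8 of 9 macrophage, 7 of 8 endothelial and 4 of 8 adipocyte markers were called higher in HFSC KO, and 1 endothelial marker was called lower. Of the 8 muscle fibre genes, 1 was called higher and 2 lower. The summed endothelial list ran from 468 to 505 CPM in HFSC KO and 206 to 258 CPM in chow KO, and the adipocyte list from 2890 to 4400 CPM and from 2620 to 3580 CPM in those groups. Their part in these values was not tested. By lists, called genes were 2 of 12 Schwann cell identity genes, 9 of 26 myelin genes and 4 of 12 non-myelinating and repair genes. In the interaction 0 of the 50 were called by edgeR, with 9 at an unadjusted p under 0.05, 3 called by DESeq2 (12.3% of all tested genes) and 15 by limma voom (43%). Without chow flox replicate 4, edgeR called 10 of the list and 34.9% of all genes.

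Of 11 axon genes, 5 passed the filter. Syt2, the synaptotagmin of motor nerve terminals, measured 1.40, 1.48 and 0.819 CPM in chow KO and 2.72, 2.59 and 2.10 CPM in chow flox, and was lower in chow KO with a log2 fold change of -1 ± 0.27 (SE, adjusted p = 0.0337). In HFSC KO it measured 1.93, 2.59 and 2.89 CPM, higher than in chow KO by 1 ± 0.27 (adjusted p = 0.0198). Flox muscle went the other way: Syt2 ran from 1.32 to 2.03 CPM in HFSC flox, below every chow flox library, and it was not called there. Its adjusted p on chow exceeded the threshold without chow flox replicate 2 or 3, or without any 1 chow KO library, at 0.0571 to 0.146. In HFSC KO against chow KO it did so without replicate 3 of chow KO and without replicates 3 and 4 of HFSC KO, each alone, at 0.0501 to 0.0824. Stmn2, a growth-associated tubulin regulator of neurons, was higher in HFSC KO than in chow KO by 0.86 ± 0.27 (adjusted p = 0.034), and lost its call without any 1 chow KO library or without HFSC KO replicate 3 or 4, at 0.0595 to 0.127.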

How the data were processed

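PolyA-selected RNA of mouse skeletal muscle was sequenced in 13 libraries, and groups and replicate numbers were taken from the sample labels. Their source is labelled skeletal muscle, but the extraction protocol speaks of white adipose tissue. The authors deposited raw counts of reads per Ensembl gene. The submitters' processing notes name GRCm38, Subread 1.5.2 with featureCounts, STAR 2.5.2b, and Trimmomatic 0.36. Whether counting used strand, which annotation release it used and how multi-mapped reads were treated was not given in the sources used here. Of 49315 identifiers, 49056 matched a symbol in GENCODE M21, which also gave coordinates and exon lengths.

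The test was that of edgeR 4.0.16 under R 4.3.3, on the deposited counts (TMM, filterByExpr, robust quasi-likelihood F test, all 13 libraries in 1 model of 4 group means, Benjamini-Hochberg over 16496 genes, threshold 0.05). The SE is the log2 fold change divided by the root of F, and 95% intervals use its degrees of freedom. Log2 CPM for likeness used a prior count of 2. The alternatives were DESeq2 1.42.0, limma 3.58.1 voom with sample weights, RLE size factors, library totals, no low-count filter, a replicate block, the compared groups alone, and each library left out. The script was tested on simulated data. Total counts of 20830943 to 45710227 per library set the precision.

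The 8 genes and the marker lists were chosen with earlier results of these data known. The rule for naming genes took the 8, up to 4 called genes of each list per comparison and direction with the smallest p, and the 5 genes nearest to Sox10 and to the mean profile, of which 1 is not reported here. Myh7, Tnnt1, Myh1, Zeb2, the genes nearest to Mbp and those in the flagged and other observations were named after their values were seen, except Gap43, Olig1 and Tyr. Same-numbered libraries did not deviate together (r from -0.34 to 0.08 over 10 pairs), so the numbers were not taken as pairs.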

Additional observations from a re-analysis of the deposited data

Results flagged for a closer look

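In groups of 4 libraries, the gap between the highest or lowest value and its neighbour was divided by the range of the group and set against Dixon's 95% critical value. Of 20 quantities tested in HFSC flox, 2 passed it, where chance flags about 1 in 20, and no level of a single Schwann cell or myelin gene was among them.

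The summed level of 6 oligodendrocyte markers was 0.844 CPM in HFSC flox replicate 1, against 0.101, 0.110 and 0.211 CPM in the other HFSC flox libraries. Of the 12 oligodendrocyte and axon markers below the filter, 6 were highest in that library and the other 6 were not. The genes given here were chosen after their values were seen. Mobp, a gene of central myelin, had 16 reads there (0.54 CPM), against at most 3 reads elsewhere. The neurofilament genes Nefl, Nefm and Nefh had 14, 9 and 11 reads there, against at most 3, 5 and 6 in any other library, and the astrocyte and glial gene Gfap had 17, against at most 6. Other markers of central myelin were highest elsewhere: Mog at 0.12 CPM and Hapln2 at 0.16 CPM in chow KO libraries, and Myrf at 0.534 CPM in a chow flox library. Mbp, which central myelin also contains, was 17.5 CPM in it, among the lowest of the series. Without that library the log2 fold change of Mbp was 0.22 ± 0.35 (SE) in HFSC KO against HFSC flox and -0.30 ± 0.35 in HFSC flox against chow flox, neither past the threshold. The source of these reads was not tested.

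The summed level of 8 muscle fibre genes was 144000 CPM in HFSC flox replicate 2, against 111000, 117000 and 116000 CPM in the other HFSC flox libraries. That library also had the highest Pmp22, Mbp, S100b and Prx of its group, at 54.0, 27.4, 1.47 and 12.3 CPM. Its Sox10 and Ngfr, at 1.47 and 1.32 CPM, were the lowest of the group. Its Cdh19 and Mag, at 1.62 and 0.861 CPM, lay between those of the other libraries. S100b was 1.44 CPM in HFSC flox replicate 4, close to its value here.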

How the results depend on the processing

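The count of 0 called among the 8 genes held in every comparison under each alternative, except that limma voom called 1, Ngfr, in KO against flox on chow. Low read numbers limit Mag, S100b, Sox10, Cdh19 and Ngfr. With library totals the median of all genes moved by -0.34 in KO against flox on chow, -0.15 in HFSC against chow in flox, 0.18 in HFSC against chow in KO and 0.33 in the interaction. No cause of the changes below was tested, and none of the reversed values was past the threshold.

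For the 50 further nerve genes, the calls in KO against flox on chow (2, with 1898 of all genes) became 5 with library totals (3096), 4 with DESeq2 (3256), 24 with limma voom (9899), 0 with the replicate block (0) and 0 with the compared groups alone (2). They ran from 0 to 14 with libraries left out, where calls over all genes ran from 0 to 7261. In HFSC against chow in flox (0, with 69 of all genes) DESeq2 gave 1 (392) and limma voom 5 (4176). In HFSC against chow in KO (15, with 4201) they ran from 5 to 17 with libraries left out (1459 to 6112), and the replicate block gave 10 (2382). In the interaction (0, with 0) DESeq2 gave 3 (2025), limma voom 15 (7098), and leaving out libraries 0 to 10 (0 to 5928).

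In KO against flox on chow, with library totals, limma voom and the replicate block, the log2 fold change was -0.30, -0.29 and -0.13 for Pmp22, -0.16, -0.52 and -0.19 for Sox10, and -0.29, -0.44 and -0.22 for Mag. With the compared groups alone it was -0.02 for Pmp22 and 0.00 for Mag. Leaving out libraries gave -0.41 to 0.24 for Pmp22, -0.01 to 0.63 for S100b, -0.40 to 0.44 for Sox10, -0.04 to 0.86 for Prx and -0.68 to 0.34 for Mag.

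In KO against flox on HFSC, Mag was 0.03 with limma voom and 0.13 with the replicate block. Leaving out libraries gave -0.09 to 0.18 for Mag and -0.18 to 0.41 for Sox10. In HFSC against chow in flox, library totals gave -0.02 for S100b. Mag was -0.16 with library totals, -0.03 with limma voom, -0.13 with the replicate block, and 0.00 with no low-count filter or the compared groups alone. Leaving out libraries gave -0.12 to 0.05 for Pmp22, -0.15 to 0.32 for S100b, -0.38 to 0.13 for Sox10, -0.18 to 0.35 for Cdh19 and -0.18 to 0.10 for Mag.

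In HFSC against chow in KO, Sox10 was 0.01 with library totals and 0.15 with the replicate block. Mag was 0.12 with library totals, 0.44 with limma voom and 0.22 with the replicate block. Leaving out libraries gave -0.11 to 0.54 for Pmp22, -0.18 to 0.51 for S100b, -0.51 to 0.43 for Sox10, -0.89 to 0.01 for Prx and -0.33 to 0.69 for Mag. In the interaction, leaving out libraries gave -0.63 to 0.11 for Mbp and -0.08 to 0.56 for Pmp22.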

Other observations

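Uchl1, an axonal ubiquitin hydrolase chosen here after its values were seen, measured 20.8 CPM in HFSC KO replicate 3 and 20.1 CPM in HFSC flox replicate 4, against 2.58 to 8.41 CPM in the other 11 libraries. Those libraries had 3.77 and 3.93 CPM of Ngfr, while HFSC flox replicate 3, the highest for Ngfr at 4.64 CPM, had 3.35 CPM of Uchl1.

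Among markers of repair Schwann cells, Gap43 was low in every library. It measured 0.788, 0.754 and 0.393 CPM in HFSC KO and 0.136, 0.240 and 0.259 CPM in chow KO. The flox libraries ran from 0.557 to 0.95 CPM on HFSC and from 0.114 to 0.694 CPM on chow. In HFSC KO against chow KO the log2 fold change of Gap43 was 1.61 ± 0.55 (SE, adjusted p = 0.0469). Its call was lost when any of 11 of the 13 libraries was left out. Of 12 tested non-myelinating and repair genes, 4 were called higher and 0 lower in that comparison. The means of Cadm2, Chl1 and Artn were lower in HFSC KO than in chow KO. Olig1 had 11, 14 and 3 reads in HFSC KO and 1, 0 and 1 in chow KO.

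The melanocyte list was a check on another lineage that uses Sox10. Tyr, the pigment enzyme tyrosinase, had 0 reads in all 13 libraries, and 1 of the 5 melanocyte genes, Pmel, passed the filter. Summed, they reached 0.361 to 0.822 CPM in HFSC KO, 0.371 to 0.557 in HFSC flox, 0.302 to 0.716 in chow KO and 0.495 to 0.643 in chow flox.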
